A study of Mus musculus with 23 samples.

Results

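Trp53 and 8 of its classic growth arrest and stress target genes were examined in 23 mouse melanoma tumors. The 9 genes, Trp53, Cdkn1a, Mdm2, Ccng1, Trp53inp1, Phlda3, Sesn2, Zmat3 and Gdf15, were taken by name from the 56748 genes of the count table. All 9 were in the table. For 7 of them the counts were high enough to be tested in both routes of treatment, while Sesn2 and Gdf15 fell below the filter on low counts.

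The tumors grew from B16-F1 cells, a mouse melanoma line, implanted under the skin of the right flank of DBA/2J mice aged 6 to 8 weeks, a strain other than the one the line was derived from. Pentoxifylline (PTX), a methylxanthine, was given at 60 mg/kg, and norcantharidin (NCTD), a demethylated relative of cantharidin, at 3 mg/kg. By the intraperitoneal (IP) route, CONTROL_IP received saline, PTX_IP and NCTD_IP received a single drug and MIX_IP received both, with 2 tumors in each group. By the intratumoral (IT) route, in which the drug was injected into the tumor, CONTROL_IT received dimethyl sulfoxide (4 tumors), and PTX_IT (3 tumors), NCTD_IT (4 tumors) and MIX_IT (4 tumors) received the same doses. Route, vehicle and the batch given in the labels changed together and cannot be told apart.

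p53, the protein of Trp53, is a transcription factor that is kept scarce by Mdm2, a ubiquitin ligase, and is released when DNA damage or other stress interrupts that control. Because Mdm2 is itself a p53 target, the pair forms a negative feedback loop. The other genes carry out parts of the response. Cdkn1a encodes p21, an inhibitor of cyclin-dependent kinases. Ccng1 encodes cyclin G1, which acts with protein phosphatase 2A on Mdm2. Zmat3 encodes an RNA-binding protein, Phlda3 a competitor of AKT at the membrane, Trp53inp1 a nuclear and autophagy protein, Sesn2 a sensor of leucine and oxidative stress, and Gdf15 a secreted stress cytokine. p53 is regulated mostly through its protein, which was not measured here.

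The p53 response element is a pair of 10-base sites, and it was searched in GRCm39 within 3000 bases on either side of the annotated start of each gene (GENCODE M39), with no spacer between the sites and at most 1 mismatch outside their cores. The consensus equals its own reverse complement, so both strands are covered. It was found near 3 of the 9 genes and near 158 of 21757 protein-coding genes (0.726%), and a perfect element was found near 1 of the 9 and near 25 of 21757 (0.115%). The 3 matches are shown because they are the stretches in the windows of the 9 genes that met this rule. Binding was not measured. Capitals mark the 4-base core of each site, and each sequence is written along the strand of its gene.
Cdkn1a: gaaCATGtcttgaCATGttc
Ccng1: acgCAAGcccgggCTAGtct
Zmat3: aaaCAAGcccaggCATGtct
The Cdkn1a element lies at chr17:29309902-29309921 on the plus strand, just ahead of the gene, which the count table places on chromosome 17 from 29309950 to 29319701. The Ccng1 element lies in an intron, at chr11:40645763-40645782 on the minus strand. The Zmat3 element, the perfect one, overlaps an annotated exon at chr3:32418480-32418499 on the minus strand. No match in the windows of the other 6 genes says only that this spacing and stringency did not find one there.

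Sequencing gave between 2861578 and 6702374 counts per tumor, with a median of 4013068, so that the floor of 3 counts corresponded to between 0.449 and 1.04 CPM, the count scaled to the size of the library. All values in CPM below use TMM scaling over the 23 tumors, and a mean is followed by its SD and n. The libraries read the 3′ end of messenger RNA, and levels were compared only within a gene. All 10 melanocyte markers were detected in every group, with a summed level between 17601 and 41452 CPM. Xist, which is transcribed in female cells, was at 0 to 0.566 CPM in CONTROL_IT and at 0 in MIX_IT, but at 5.19 to 13.6 CPM in NCTD_IT and 1.28 to 11.6 CPM in PTX_IT. Ddx3y, from the Y chromosome, showed the reverse, at 6.83 to 15.5 CPM in MIX_IT and at most 0.294 CPM in NCTD_IT. By the IP route the 2 controls differed. CONTROL_IP replicate 1 had Xist at 0 and Ddx3y at 5.63 CPM, and replicate 2 had 8.26 and 0.451 CPM. Xist was at 0 in every drug-treated IP tumor. The part of sex in the IP comparisons was not tested. The labels give no sex, and the study's methods describe sex-matched groups. In bulk tumors, fewer cells of a type and less RNA per cell cannot be told apart.

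Mdm2 was the only one of the 9 genes to pass the test against a control, and it did so in NCTD_IT. In CONTROL_IT its 4 tumors held 95.5, 112, 95.5 and 95.1 CPM, and in NCTD_IT they held 164, 193, 166 and 178 CPM. Every NCTD_IT tumor was above every control, and the means were 175 ± 13.2 (n = 4) and 99.6 ± 8.52 (n = 4). The log2 fold change was 0.81 (SE 0.19, adjusted p = 0.0467, edgeR's quasi-likelihood test with Benjamini-Hochberg adjustment over all genes). It was the single gene called among the 7 tested, while 1.37% of all genes were called in this comparison, 171 of 12480, 21.6% had an unadjusted p below 0.05 and 7.82% were higher without overlap. The call lay close to its threshold, and it was lost in 7 of the 8 fits that left out 1 tumor, where the fold change stayed between 0.77 and 0.86 and the adjusted p between 0.0533 and 0.151; without replicate 10, a control, it was kept (0.89, adjusted p = 0.0493).

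Mdm2 values above the controls were also measured in the other drug groups, without a call. In MIX_IT the 4 tumors held 137, 126, 233 and 140.2 CPM, all above the 4 controls, with a mean of 159 ± 49.3 (n = 4) and a log2 fold change of 0.67 (SE 0.19, unadjusted p = 0.00241, adjusted p = 0.172 by edgeR), where 4.93% of all genes were higher without overlap. Without replicate 23 the fold change was 0.43 (adjusted p = 0.442). In PTX_IT the 3 tumors held 125, 160.5 and 117 CPM, again all above the controls (log2 fold change 0.43, SE 0.20, adjusted p = 0.786), where 3.81% of all genes were. NCTD_IT was also above PTX_IT without overlap, by 0.39 (SE 0.20, unadjusted p = 0.0743), where 2.30% of all genes were, 3.87% had an unadjusted p below 0.05 and 0% were called. By the IP route CONTROL_IP held 102 and 97.2 CPM, PTX_IP 122 and 106 CPM, NCTD_IP 109 and 123 CPM, and MIX_IP 122 and 120.3 CPM. These 3 IP differences were 0.20, 0.23 and 0.30 on the log2 scale, none of them called, and the smallest adjusted p of the 3 was 0.946. Each group was above both controls, as were 15.7%, 16.3% and 17% of all genes in these comparisons.

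Across both routes, therefore, each of the 11 drug-treated IT tumors had more Mdm2 RNA than each CONTROL_IT tumor, and each of the 6 drug-treated IP tumors had more than both CONTROL_IP tumors. This pattern was noticed after the values were seen, so its share of all genes is a description and no test of Mdm2. How often unrelated routes would give it was not tested. The pattern was shared by 5 of 13395 genes (0.0373%). The other 4 were Mc1r, the melanocortin receptor of pigment cells, Eif2s3x, an X-linked subunit of a translation initiation factor, Fnip2, a partner of folliculin, and Hdac4, a histone deacetylase. Of the other 6 tested genes among the 9, none was above every control, or below every control, in all drug-treated tumors of a route. Of all 13395 genes, 114 (0.851%) were higher in every drug-treated IT tumor and 446 (3.33%) in every drug-treated IP tumor. Shares of this size let some genes meet both rules even if the routes are unrelated.

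**Figure D1:**
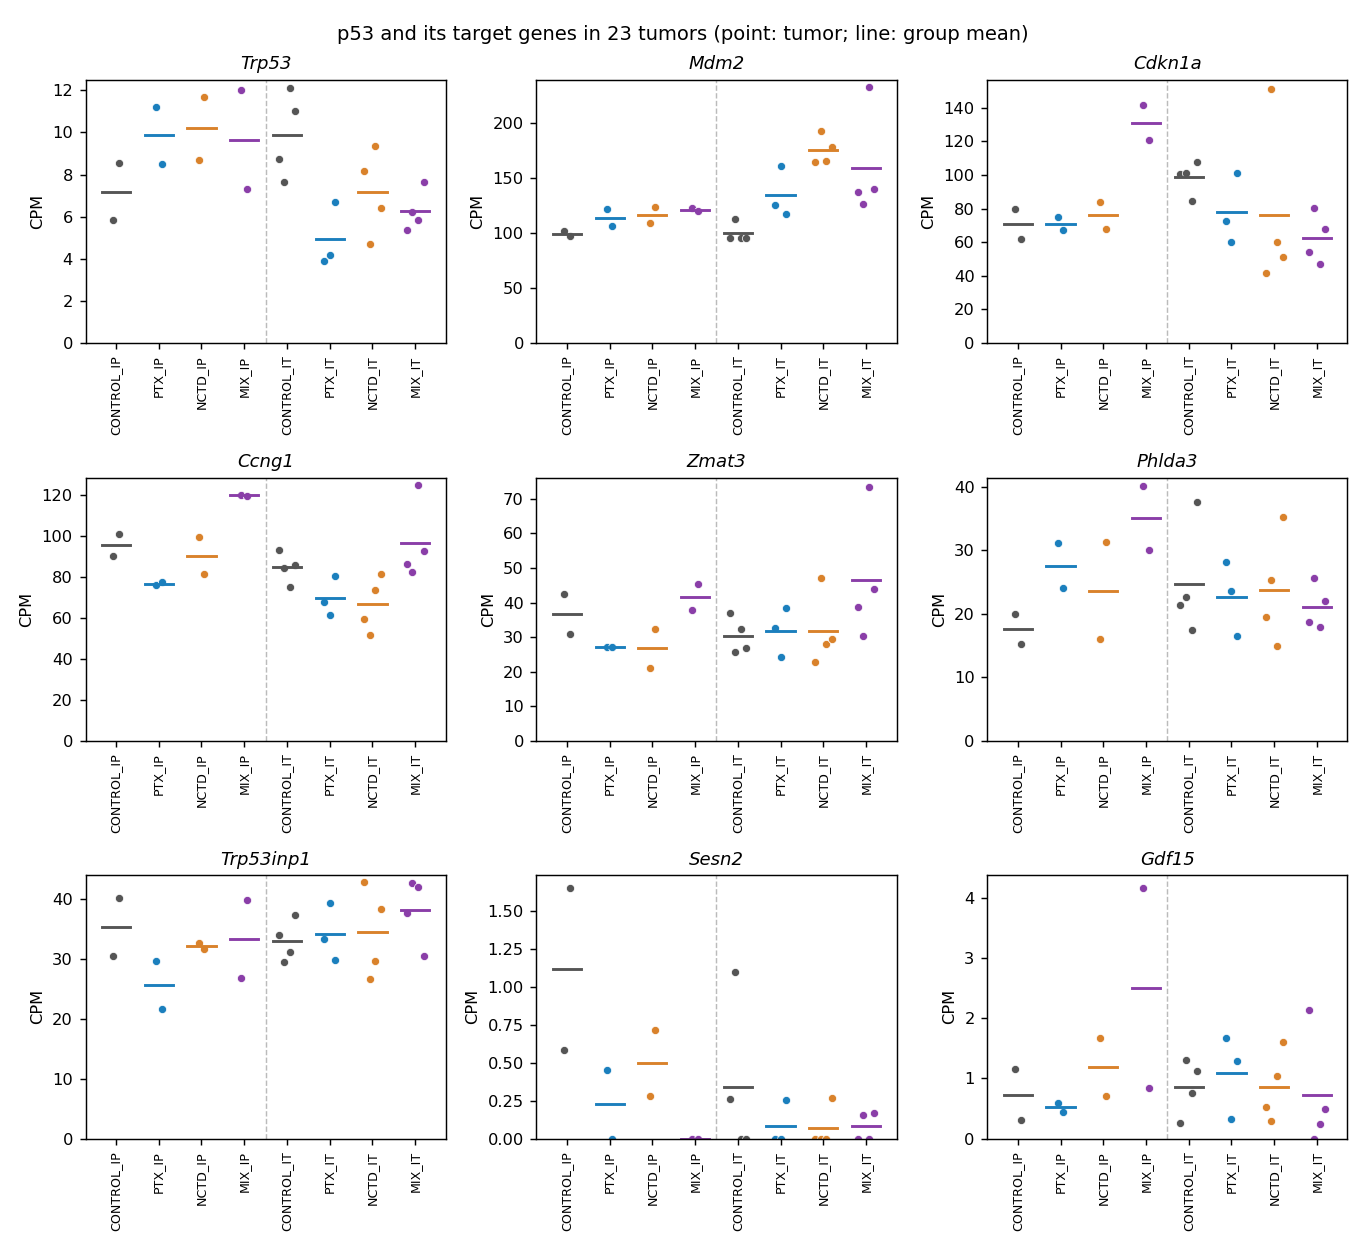
Level of each of the 9 genes in CPM (vertical axis, from 0) in the 8 groups (horizontal axis), with a point for each of the 23 tumors and a line at the group mean; the dashed line separates the IP groups from the IT groups. Mdm2 in the 4 NCTD_IT tumors, at 164 to 193 CPM, stands above the 4 CONTROL_IT tumors, at 95.1 to 112 CPM, whereas Cdkn1a is highest in MIX_IP and in 1 NCTD_IT tumor.

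Other measures also differed between IT groups, though not in every group in which Mdm2 lay above the controls. Malat1, a nuclear RNA, was at 76.3 to 96.5 CPM in CONTROL_IT, 279 to 693 CPM in NCTD_IT, 156 to 498 CPM in MIX_IT and 74.2 to 424 CPM in PTX_IT. The 8 fibroblast markers summed to 109 to 370 CPM in CONTROL_IT and 393 to 1682 CPM in NCTD_IT, and the 6 endothelial markers to 32.96 to 58.8 CPM and 75.7 to 138 CPM. The 6 neutrophil markers, 5 of them detected in each of these groups, summed to 2.26 to 8.76 CPM in CONTROL_IT, 17.9 to 1093 CPM in NCTD_IT and 13.99 to 22.6 CPM in MIX_IT. In MIX_IT the fibroblast sum was 494 to 8611 CPM and the endothelial sum 61.96 to 221 CPM, again above the controls. In PTX_IT the fibroblast, endothelial and neutrophil sums were 260 to 813, 52.7 to 81.9 and 7.19 to 17.7 CPM, all overlapping the controls. The macrophage sum and the T and NK cell sum overlapped the controls in every IT drug group. The 10 melanocyte markers summed to 29933 to 35280 CPM in CONTROL_IT. They reached lower values in NCTD_IT, 21704 to 29964 CPM, and in MIX_IT, 17601 to 32981 CPM, both overlapping the controls. With the log2 level of Xist as a covariate the Mdm2 fold change in NCTD_IT was 0.41 (adjusted p = 0.873 by edgeR) and 0 genes of the whole table were called. The Xist levels of these 2 groups did not overlap. With the same covariate the Mdm2 difference was 0.078 in PTX_IT and 0.72 in MIX_IT (adjusted p = 0.0780). Xist was at 0 in all 4 MIX_IT tumors, and the Mdm2 difference of that group was not called with or without the covariate. The part of Malat1, of the cell type markers and of sex in the Mdm2 result was not tested.

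Trp53 itself was measured at low counts, between 13 and 75 per tumor, and no difference in it was called. By the IT route CONTROL_IT held 8.75, 7.67, 12.1 and 11.03 CPM and PTX_IT held 3.90, 4.19 and 6.68 CPM, without overlap. The log2 fold change was −0.996 (SE 0.36, unadjusted p = 0.0146, adjusted p = 0.785 by edgeR). With Xist as a covariate it was −0.11 (adjusted p = 0.996). In this comparison 6.35% of all genes had an unadjusted p below 0.05, none was called, and 4.15% were lower without overlap. MIX_IT, at 5.35, 6.24, 5.83 and 7.66 CPM, also lay below all 4 controls (−0.66, SE 0.32, adjusted p = 0.399), where 4.98% of all genes did. NCTD_IT held 8.17, 4.70, 9.33 and 6.40 CPM and overlapped the controls (−0.46, SE 0.33, adjusted p = 0.424), and its difference was 0.62 with the Xist covariate (adjusted p = 0.888). By the IP route the direction was the opposite: CONTROL_IP held 5.82 and 8.56 CPM, and the 3 drug groups had means between 9.65 and 10.2 CPM, with log2 differences of 0.43 to 0.50, none called. Leaving out 1 tumor moved these to between 0.028 and 0.76 in MIX_IP, 0.26 and 0.81 in NCTD_IP, and 0.21 and 0.76 in PTX_IP. The lowest values came without MIX_IP replicate 7 and, for both single drugs, without CONTROL_IP replicate 1. An antisense RNA overlaps Trp53, but it had 12 counts in all tumors together.

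When the drugs were combined, the Cdkn1a differences had opposite signs by the 2 routes, and neither was called. CONTROL_IP held 80.0 and 61.6 CPM and MIX_IP held 141 and 121 CPM, means of 70.8 ± 13.006 and 131 ± 14.5 (n = 2 each). The log2 fold change was 0.90 (SE 0.21, unadjusted p = 0.00192), with an adjusted p of 0.999 by edgeR. At an unadjusted p below 0.05, 2.94% of all genes differed here, and 17% were higher in MIX_IP without overlap, which is a wide background with 2 tumors a group. The single drugs did not stand apart, with 75.0 and 67.0 CPM in PTX_IP and 83.7 and 68.0 CPM in NCTD_IP. By the IT route CONTROL_IT held 101, 101, 84.7 and 108 CPM, while MIX_IT held 54.0, 80.5, 46.8 and 67.6 CPM. These groups did not overlap (−0.66, SE 0.32, adjusted p = 0.396 by edgeR), where 4.98% of all genes were lower without overlap. DESeq2 on the 2 groups, the method named in the study, called the difference (−0.66, adjusted p = 0.0416), where it called 2.98% of all genes. The controls of the 2 routes also differed in level, with means of 98.5 CPM in CONTROL_IT and 70.8 CPM in CONTROL_IP. The MIX_IT tumors overlapped those of CONTROL_IP.

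The difference between the routes was tested directly, as a contrast that also takes in the levels of the 2 controls. The effect of the combination on Cdkn1a was lower by the IT route than by the IP route by −1.55 on the log2 scale (SE 0.51, unadjusted p = 0.00635, adjusted p = 0.585 by edgeR over all 23 tumors). In that test 7.44% of all genes had an unadjusted p below 0.05 and none was called. Without the filter on low counts the difference was −1.56 with an adjusted p of 0.00981, a call, in a fit that called 0.478% of all genes. The same contrast gave −1.07 for Trp53 (SE 0.51, unadjusted p = 0.0487, adjusted p = 0.668) and −1.23 for Phlda3 (SE 0.49, unadjusted p = 0.0217, adjusted p = 0.616). For PTX alone the route difference in Trp53 was −1.45 (SE 0.53, unadjusted p = 0.0125, adjusted p = 0.892), where 5.23% of all genes had an unadjusted p below 0.05. For NCTD alone 0 of the 7 genes did, where 10.8% of all genes did.

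Under single drugs by the IT route, Cdkn1a varied widely between tumors. NCTD_IT held 41.6, 151, 60.2 and 50.9 CPM, so that 3 tumors lay below every control and replicate 18 lay above them all. The log2 fold change was −0.38 (SE 0.32, adjusted p = 0.522), and −0.95 without replicate 18 (adjusted p = 0.109 by edgeR). Replicate 18 was also the tumor with the most Malat1, 693 CPM, and the largest share of mitochondrial counts of the 15 IT tumors, 6.32%. Its Mdm2 level, 193 CPM, was the highest of its group, while its Trp53 level, 4.70 CPM, was the lowest. PTX_IT held 72.5, 59.9 and 101 CPM (−0.34, SE 0.35, adjusted p = 0.883).

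**Figure D2:**
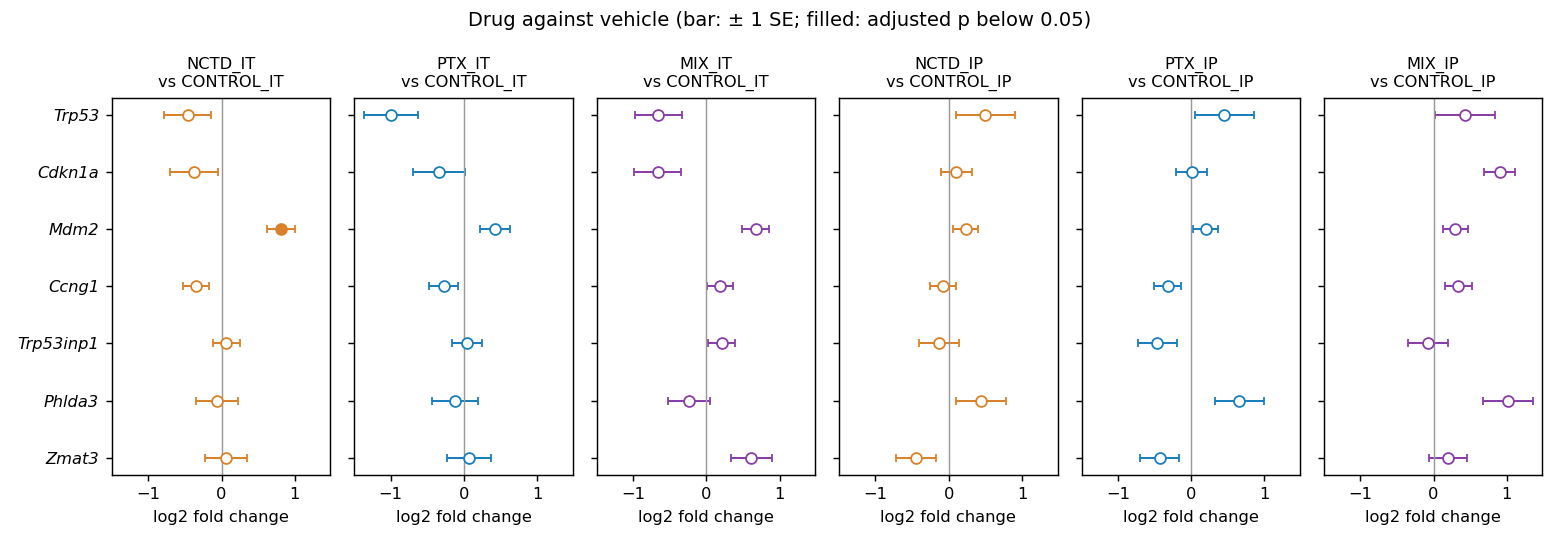
Log2 fold change of the 7 tested genes (horizontal axis) in each of the 6 comparisons of a drug group with the control of its route, with bars of 1 SE; a filled point marks an adjusted p below 0.05. The single filled point is Mdm2 in NCTD_IT, at 0.81, and Cdkn1a lies at 0.90 in MIX_IP but at −0.66 in MIX_IT.

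Ccng1 was highest under the combination and lowest under NCTD or PTX alone by the IT route. MIX_IT held 86.3, 82.6, 125 and 92.8 CPM, NCTD_IT 59.5, 51.7, 73.6 and 81.6 CPM, PTX_IT 68.0, 61.2 and 80.4 CPM, and CONTROL_IT 93.5, 84.6, 75.1 and 85.7 CPM. All 4 MIX_IT tumors were above all tumors of either single drug, but not above the controls. The log2 difference was 0.54 against NCTD_IT (SE 0.18, unadjusted p = 0.0091, adjusted p = 0.803) and 0.46 against PTX_IT (SE 0.20, unadjusted p = 0.0313, adjusted p = 0.982), where 1.45% and 2.12% of all genes were higher without overlap. At an unadjusted p below 0.05 the shares of all genes were 6.02% and 3.75%, and 0.00801% and 0% were called. Against the sum of its drugs the combination departed by 0.81 (SE 0.27, unadjusted p = 0.00778, adjusted p = 0.379 by edgeR), where 11.3% of all genes had an unadjusted p below 0.05 and 0.0401% were called. By the IP route MIX_IP held 120.3 and 119.8 CPM against 90.3 and 101 CPM in CONTROL_IP, while PTX_IP held 76.1 and 77.5 CPM and NCTD_IP 99.4 and 81.6 CPM. None of these Ccng1 differences was called. By the IT route the single-drug groups were also the groups with Xist above the controls. With Xist as a covariate the Ccng1 difference from CONTROL_IT was −0.024 in NCTD_IT and −0.013 in PTX_IT, against −0.35 and −0.28 without it. The part of sex in the Ccng1 differences was not tested.

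Zmat3 had its highest IT mean in MIX_IT, 46.6 ± 18.8 CPM (n = 4), against 30.4 ± 5.16 (n = 4) in CONTROL_IT. The tumors of MIX_IT held 38.8, 30.3, 73.5 and 43.8 CPM and those of CONTROL_IT 36.8, 25.6, 32.3 and 26.9 CPM, with overlap. The log2 fold change of 0.61 (SE 0.28, unadjusted p = 0.0428, adjusted p = 0.365 by edgeR) was 0.30 without replicate 23, which also had the highest Mdm2 and Ccng1 of the group. In the other groups the Zmat3 means lay between 26.7 and 41.6 CPM. Together with Mdm2, Zmat3 made 2 of 7 genes with an unadjusted p below 0.05 in MIX_IT, where 13% of all genes had one.

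Phlda3 was highest in MIX_IP, at 40.2 and 30.0 CPM, against 19.996 and 15.2 CPM in CONTROL_IP (log2 fold change 1.01, SE 0.34, unadjusted p = 0.0147), but its adjusted p was 0.999. PTX_IP, at 31.1 and 24.02 CPM, also lay above both controls (0.66, SE 0.34, adjusted p = 0.906), where 15.7% of all genes did. With the 4 tumors that received PTX set against the 4 that did not, the IP difference in Phlda3 was 0.62 (SE 0.23, unadjusted p = 0.0210, adjusted p = 0.999), where 2.96% of all genes had an unadjusted p below 0.05. The corresponding NCTD difference in Cdkn1a was 0.50 (SE 0.19, unadjusted p = 0.0238), with an adjusted p that rounds to 1, where 2.56% of all genes had an unadjusted p below 0.05. The PTX difference in Cdkn1a was 0.40 (SE 0.19, unadjusted p = 0.0601 by edgeR). This fit had no term for the 2 drugs together. Against CONTROL_IP the log2 fold change of Cdkn1a was 0.10 in NCTD_IP, 0.007 in PTX_IP and 0.90 in MIX_IP. By the IT route the 4 groups of Phlda3 all overlapped, with means between 21.04 and 24.7 CPM.

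Trp53inp1 varied least, with group means from 25.6 CPM in PTX_IP to 38.2 CPM in MIX_IT, a ratio of 1.49 between the highest and the lowest mean, against 1.74 to 2.11 for the other 6 tested genes. It was lower in PTX_IP, at 29.6 and 21.6 CPM, than in CONTROL_IP, at 30.5 and 40.3 CPM (−0.46, SE 0.27, adjusted p = 0.910), where 16.1% of all genes were lower without overlap. Its IT groups overlapped the control.

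Sesn2 and Gdf15, the targets that other stress pathways also induce, were near the floor. Sesn2 had 31 counts in all, at most 11 in a tumor, and 0 in 12 of the 23 tumors, and both MIX_IP tumors were at 0. Gdf15 had 95 counts in all and between 0 and 16 in a tumor. The highest, 16 counts or 4.17 CPM, was in MIX_IP replicate 7, while the other MIX_IP tumor had 3 counts. Differences in these genes were not detectable at this depth. When tested without the filter, none of the 12 comparisons of the pair with a control was called, and the smallest unadjusted p was 0.0508, for Sesn2 in MIX_IP.

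Levels were ordered over the 8 groups for each gene, and most neighbours in that order could not be separated. For Mdm2, the order from high to low was NCTD_IT, MIX_IT, PTX_IT, MIX_IP, NCTD_IP, PTX_IP, CONTROL_IT and CONTROL_IP, so that both controls were lowest, but all 7 neighbouring pairs overlapped. For Cdkn1a, MIX_IP came first, at 131 CPM, and its tumors lay above those of CONTROL_IT, next in order at 98.5 ± 9.74 CPM (n = 4), whereas the 6 pairs below overlapped. For Trp53inp1 the pair NCTD_IP and PTX_IP was apart. For the other 6 genes all 7 neighbouring pairs overlapped, with highest means of 10.2 CPM for Trp53 in NCTD_IP and 120.03 CPM for Ccng1 in MIX_IP and lowest means of 4.92 CPM in PTX_IT and 66.6 CPM in NCTD_IT.

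Adjusted for drug, the IT tumors had more Mdm2 than the IP tumors by 0.30 on the log2 scale (SE 0.11, unadjusted p = 0.0110, adjusted p = 0.217 by edgeR) and less Ccng1 by −0.27 (SE 0.10, unadjusted p = 0.0102, adjusted p = 0.214). In that comparison 0.366% of all genes were called and 13.5% had an unadjusted p below 0.05. An F test over the 4 groups of a route called none of the 7 genes. Its smallest unadjusted p by the IT route was 0.00318 for Mdm2 (adjusted p = 0.212), where 12.9% of all genes were below 0.05 and 0.0240% were called. By the IP route it was 0.00368 for Cdkn1a (adjusted p = 0.999), where 3.27% were below 0.05 and 0% were called. DESeq2's likelihood ratio test called Mdm2 over the IT groups (adjusted p = 0.0291) together with 2.87% of all genes, and without the filter edgeR called Cdkn1a over the IP groups (adjusted p = 0.0307) together with 0.812% of all genes.

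In the remaining comparisons the counts were as follows. No gene of the 7 was called in PTX_IT, MIX_IT, NCTD_IP, PTX_IP or MIX_IP against the control of its route, where 0% of all genes were called by edgeR. At an unadjusted p below 0.05 the number was 1 in PTX_IT, 2 in MIX_IT and 2 in MIX_IP. The shares of all genes there were 6.35%, 13% and 2.94%, in the same order. The number was 0 in NCTD_IP and in PTX_IP, where 3.59% and 5.30% of all genes were below 0.05. DESeq2 on the 2 groups called 0 of the 7 in those 2 comparisons and in PTX_IT and MIX_IP, and 1, Cdkn1a, in MIX_IT, where it called 2.98% of all genes. The median log2 fold change of the 7 genes was −0.06 in NCTD_IT, −0.13 in PTX_IT, 0.19 in MIX_IT, 0.10 in NCTD_IP, 0.01 in PTX_IP and 0.34 in MIX_IP, while the median of all genes tested lay between −0.01 and 0.03. In MIX_IP 6 of the 7 differences were above 0. The 3 comparisons of a route share their control tumors.

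Over the 23 tumors, the Pearson correlation of log2 CPM (prior count 2) with Cdkn1a was 0.35 for Phlda3, 0.17 for Trp53, 0.15 for Zmat3, 0.11 for Ccng1, −0.39 for Mdm2 and −0.43 for Trp53inp1. After subtraction of group means the values were 0.13, −0.24, 0.30, −0.33, −0.18 and −0.56 in the same order. The highest correlation within groups among the 21 pairs of tested genes was 0.49, between Mdm2 and Zmat3. The genes most like Cdkn1a among 13394 were Scaf11, a splicing-related factor (0.80), Pvr, a cell adhesion receptor (0.79), Nfil3, a transcription factor (0.76), Slc2a1, the glucose transporter GLUT1 (0.75), and Ero1a, an oxidase of the endoplasmic reticulum (0.75). Phlda3 ranked 1600 in that order and Mdm2 ranked 12257. These correlations describe tumors that share groups, scaling and batch.

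**Figure D3:**
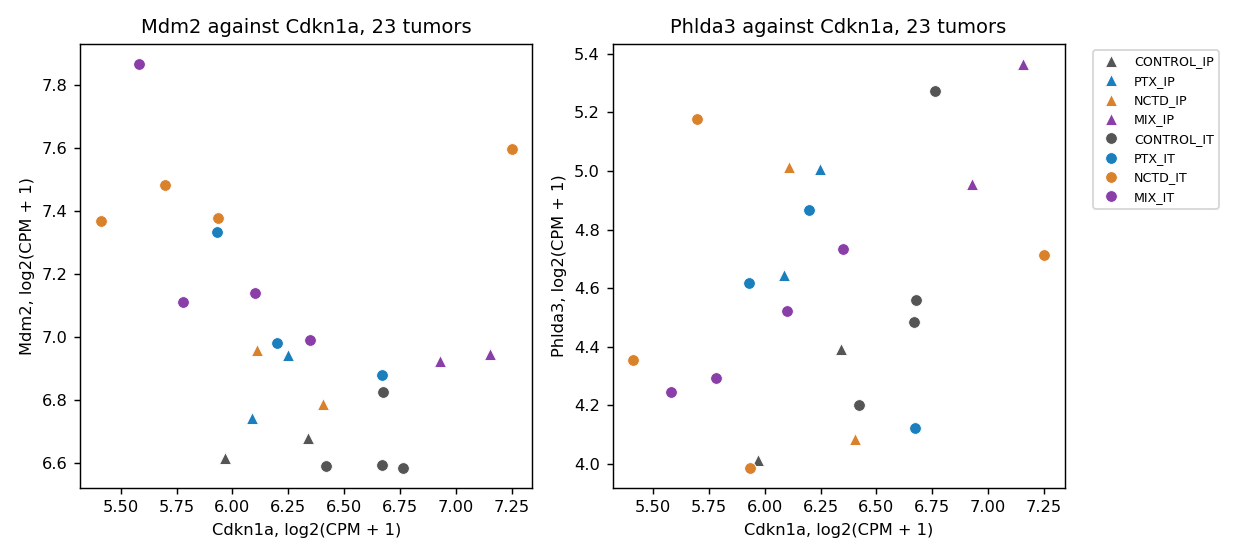
Mdm2 (left) and Phlda3 (right) against Cdkn1a as log2(CPM + 1), with a point for each of the 23 tumors, triangles for the IP route and circles for the IT route. Over all tumors the correlation of log2 CPM with Cdkn1a, taken with a prior count of 2, is −0.39 for Mdm2 and 0.35 for Phlda3, and the NCTD_IT tumor at the far right of both plots is replicate 18.

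The genes that act upstream of p53 were described from a list of 19 regulators and relatives, of which 15 were tested. None was called in any of the 6 comparisons with a control. Mdm4, the Mdm2 homologue that binds p53, had 53.1 ± 8.41 CPM in CONTROL_IT and 78.0 ± 6.36 CPM in NCTD_IT (n = 4 each). Its log2 fold change was 0.55 (SE 0.18, adjusted p = 0.0935 by edgeR). The ranges, 40.6 to 58.2 and 72.0 to 84.0 CPM, did not overlap, where 7.82% of all genes were higher without overlap. Atr, a DNA damage kinase, and Usp7, a deubiquitinase of Mdm2 and p53, gave 0.53 (adjusted p = 0.122) and 0.50 (adjusted p = 0.138) in the same comparison. The median of the list there was −0.14, with 6 of 15 above 0 and 3 of them at an unadjusted p below 0.05 on the higher side, where 11.6% of all genes were. Ppm1d, the phosphatase that opposes p53, gave −0.89 in PTX_IT (unadjusted p = 0.0177, adjusted p = 0.785). Cdkn2a, whose p19Arf product restrains Mdm2, had 0 counts in all 23 tumors, which allows a level of up to 0.0295 CPM over the tumors together.

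Other p53 targets were taken in 3 lists. Of 12 tested genes of arrest and DNA repair, 10 were above 0 in NCTD_IT, with a median of 0.40 and none called. Gadd45a, a growth arrest and repair factor, had 16.1 ± 6.25 CPM in CONTROL_IT and 43.7 ± 23.6 CPM in NCTD_IT (1.43, SE 0.39, adjusted p = 0.0615 by edgeR). Btg2, an antiproliferative factor, had 4.29 ± 2.64 and 16.3 ± 12.6 CPM (1.90, SE 0.59, adjusted p = 0.0849), and Plk2, a stress-responsive kinase, gave 0.94 (adjusted p = 0.195). By the IP route the same list had a median of −0.29 in NCTD_IP, with 3 of 11 above 0, and Sesn1, a relative of Sesn2, gave −0.90 in PTX_IP and −0.94 in MIX_IP (unadjusted p = 0.0208 and 0.0186).

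Of 14 tested apoptosis targets, 10 were above 0 in NCTD_IT, with a median of 0.15 and none called. Dram1, a lysosomal regulator of autophagy, had 2.39 ± 2.50 CPM in CONTROL_IT and 12.8 ± 3.79 CPM in NCTD_IT (2.37, SE 0.73, adjusted p = 0.0836 by edgeR). Apaf1, the scaffold of the apoptosome, gave 0.55 in NCTD_IT and 0.62 in MIX_IT (adjusted p = 0.191 and 0.280), and Rps27l, a ribosomal protein homologue, gave −0.53 in NCTD_IT (adjusted p = 0.161). Tnfrsf10b, the TRAIL receptor, had its highest mean in MIX_IT, 15.8 ± 6.67 CPM against 8.61 ± 1.01 CPM in CONTROL_IT (0.87, SE 0.32, adjusted p = 0.267). Among 11 tested targets in metabolism and signalling the median was −0.44 in NCTD_IT. There Ddit4, an inhibitor of mTORC1, gave −1.15 (SE 0.37, adjusted p = 0.0950), and Abhd4 gave −0.64 (adjusted p = 0.204). Ddit4 had 73.3 ± 14.4 CPM in NCTD_IT and 163 ± 26.5 CPM in CONTROL_IT (n = 4 each). Sulf2, a sulfatase of the cell surface, gave 1.55 in NCTD_IT and 1.88 in MIX_IT (adjusted p = 0.131 and 0.196). Slc19a2, a thiamine transporter, gave 0.76 in MIX_IP (unadjusted p = 0.0178).

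**Figure D4:**
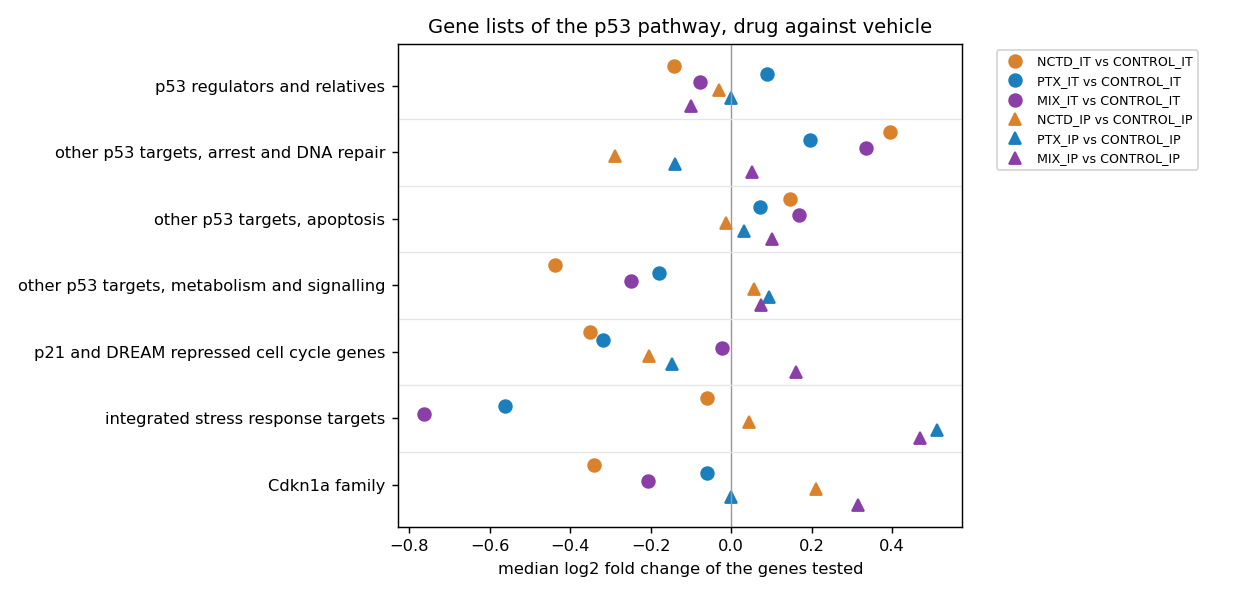
Median log2 fold change (horizontal axis) of the tested genes of 7 lists around p53 (vertical axis) in the 6 comparisons with a control, coloured by drug, with circles for the IT route and triangles for the IP route; the medians carry no error bar, and no gene of these lists outside the 9 was called in any of them. The integrated stress response list lies at −0.76 in MIX_IT and 0.47 in MIX_IP, and the arrest and repair list at 0.40 in NCTD_IT and −0.29 in NCTD_IP.

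Cell cycle genes that p21 represses through the DREAM complex had log2 fold changes below 0 in the single-drug IT groups, and none was called. All 16 were tested, and 0 of 16 were above 0 in NCTD_IT and in PTX_IT, with medians of −0.35 and −0.32, while 8 of 16 were above 0 in MIX_IT, with a median of −0.02. At an unadjusted p below 0.05, 2 were lower in NCTD_IT and 1 in PTX_IT. Of all genes, 21.6% and 6.35% differed at that p in either direction. These comparisons share their control tumors. NCTD_IT and PTX_IT were also the IT groups with Xist above the controls, while MIX_IT had Xist at 0. The part of sex in these cell cycle differences was not tested. In MIX_IP, where Cdkn1a was highest, 13 of 16 were above 0, with a median of 0.16. Cdc25c, a phosphatase that starts mitosis, gave −1.39 in NCTD_IT (SE 0.52, adjusted p = 0.137), and Cdc20, an activator of the anaphase-promoting complex, gave −1.15 (SE 0.46, adjusted p = 0.161 by edgeR). Bub1, a spindle checkpoint kinase, gave −0.77 (adjusted p = 0.266). E2f1, a transcription factor of S phase entry, gave between −0.16 and 0.094 by the IT route. By the IP route it gave 1.02 in MIX_IP, 1.00042 in NCTD_IP and 0.91 in PTX_IP (unadjusted p = 0.0151, 0.0168 and 0.0246), and the smallest adjusted p of the 3 was 0.906.

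Cdkn1a, Sesn2 and Gdf15 are also raised by stress on protein synthesis, and 15 targets of the integrated stress response were therefore listed, of which 13 were tested. In MIX_IT 2 of 13 were above 0, with a median of −0.76, and 5 were lower at an unadjusted p below 0.05, where 5.11% of all genes were. In MIX_IP 13 of 13 were above 0, with a median of 0.47, and none reached an unadjusted p below 0.05. PTX alone gave medians of the same signs, −0.56 in PTX_IT with 2 of 13 above 0 and 0.51 in PTX_IP with 11 of 13 above 0, while NCTD alone gave −0.060 and 0.045. Trib3, a pseudokinase, and Asns, asparagine synthetase, gave −1.51 and −1.07 in MIX_IT (adjusted p = 0.172 and 0.197 by edgeR), and 0.75 and 0.41 in MIX_IP. In PTX_IT they gave −0.997 and −0.85, and in NCTD_IT −0.78 and −0.97. Slc7a11, the cystine transporter, gave 1.85 in NCTD_IT (SE 0.49, adjusted p = 0.0583), and Cebpb, a transcription factor, gave 1.97 (SE 0.67, adjusted p = 0.108). No gene of the list was called. Of the other inhibitors of cyclin-dependent kinases, Cdkn1b, Cdkn2c and Cdkn2d were tested and gave log2 fold changes between −0.43 and 0.50 over the 6 comparisons, none of them called.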

How the data were processed

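RNA of 23 tumors in 8 groups was sequenced from the 3′ end of messenger RNA. The authors used STAR 2.7.11b with GRCm39 on trimmed reads, and the values they deposited are raw counts per gene. The strand setting, the annotation release, the treatment of reads with several alignments and the use of molecular identifiers were not given in the sources used here, so overlapping genes can share reads. Every column of tumor values was used (0 left out). Groups and separate tumors were taken from the labels. No 2 tumors were so alike as to be 1 library (chi-square per degree of freedom 8.09 to 64.6 over the 25 pairs within groups). p-values measure the spread between these tumors, and floors cover counting error only.

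Tests were run on the counts in edgeR 4.0.16 (limma 3.58.1, R 4.3.3), using filterByExpr (minimum count 10, minimum total 15), TMM and two-sided quasi-likelihood tests at an adjusted p below 0.05 over all genes. The 4 groups of a route shared a model (12480 genes tested for IT, 12424 for IP), and contrasts between routes used all 23 tumors (13395 genes). The tests were checked on simulated data. Response elements were searched with Python 3.11.15 and pysam 0.24.0, and of the 9 genes 1 has the same start and end in the count table and in GENCODE M39. Alternatives were DESeq2 1.42.0 and its size factors, no filter, protein-coding genes alone, other sets of tumors, Xist as a covariate and leaving out each tumor.

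The 9 genes and the lists were chosen with earlier results of these data known. Named were the 9 genes, up to 4 genes of each list with the smallest p, the 5 genes most correlated with Cdkn1a (log2 CPM, prior count 2), and Xist, Ddx3y and Malat1. Genes above every control were named after their values were seen.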

Additional observations from a re-analysis of the deposited data

Results flagged for a closer look

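Within groups of 4 tumors, the extreme tumor was compared with the others by Dixon's criterion for the 7 tested genes in 3 IT groups, 21 groups in all, and 3 stood apart. Chance gives about 1 in 20 such groups. Cdkn1a in NCTD_IT replicate 18 was at 151 CPM, against 41.6 to 60.2 CPM in the other 3 tumors. Mdm2 in CONTROL_IT replicate 10 was at 112 CPM, against 95.1 to 95.5 CPM in the others, and Mdm2 in MIX_IT replicate 23 was at 233 CPM, against 126 to 140 CPM. The last tumor also had the most Zmat3 (73.5 CPM), Ccng1 (125 CPM) and Malat1 (498 CPM) of its group.

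The combination was accompanied by opposite differences in Cdkn1a by the 2 routes, and the difference between them was −1.55 on the log2 scale (unadjusted p = 0.00635, adjusted p = 0.585 by edgeR). Route, vehicle and batch cannot be told apart in it, and it takes in the difference in Cdkn1a level between the 2 controls.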

How the results depend on the processing

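Under settings other than leaving out a tumor, 268 log2 fold changes kept their direction and side of the threshold, 3 turned, 1 lost its call and 1 gained one. With Xist as a covariate the number of the 7 genes called in NCTD_IT was 0 in place of 1, Mdm2 there was 0.41 (adjusted p = 0.873), and the directions of Trp53 (0.62) and Trp53inp1 (−0.18) in NCTD_IT and of Trp53inp1 in PTX_IT (−0.16) turned. The number called rose from 0 to 1 in MIX_IT with DESeq2 (Cdkn1a, −0.66), in the combination's route difference and over the IP groups without the filter (Cdkn1a), and over the IT groups with DESeq2 (Mdm2). Over the settings other than leaving out a tumor the adjusted p of Mdm2 in NCTD_IT ran from 1.08e-05 with DESeq2 to 0.873. Over all genes, the number called in NCTD_IT was 171, but 1501 with DESeq2, 1190 without the filter, 946 with only the 2 groups, 777 with all tumors and 0 with Xist. In MIX_IT it was 0, but 338 with DESeq2, 364 without the filter and 76 with Xist.

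Leaving out each tumor gave 0 to 1 genes called in NCTD_IT and 0.77 to 0.89 for Mdm2 there. Directions turned within these ranges: in NCTD_IT, Trp53inp1 −0.051 to 0.17, Phlda3 −0.31 to 0.22 and Zmat3 −0.18 to 0.21; in PTX_IT, Trp53inp1 −0.058 to 0.13, Phlda3 −0.32 to 0.15 and Zmat3 −0.11 to 0.23; in MIX_IT, Phlda3 −0.37 to 0.051; in NCTD_IP, Cdkn1a −0.074 to 0.30, Ccng1 −0.23 to 0.075, Trp53inp1 −0.32 to 0.083 and Phlda3 −0.12 to 0.83; in PTX_IP, Cdkn1a −0.17 to 0.21; and in MIX_IP, Trp53inp1 −0.37 to 0.18 and Zmat3 −0.013 to 0.44. An IP group left with 1 tumor was assumed to vary like the others. The cause of these changes was not tested. No paired analysis was possible because each tumor carries a replicate number of its own. Depth limits Sesn2 and Gdf15, and 2 tumors a group limit the IP comparisons.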
